A study of Homo sapiens with 4 samples.

Results

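Heat shock proteins and co-chaperones were followed in the human pancreatic carcinoma line MIA PaCa-2 as 10 named genes: HSP90AA1, HSP90AB1, HSPA4, HSPA4L, HSPA8, HSPB1, HSPD1, HSPE1, DNAJB1 and FKBP4. The genes were chosen by symbol, and each was read by its brightest probe set (by mean log2 signal) among those the array annotation gives to that symbol alone. Of the 10 genes, 9 had such a probe set, among 19775 genes on the array. HSPA8, the constitutive cytosolic HSP70, had 0, because the annotation gives each of its 4 probe sets to HSPA8 together with small nucleolar RNA genes, and no value is given for it. The 9 genes had 26 probe sets in all, and 23 of these passed the filter on dim probe sets.

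The ING3 cells carried a lentivirus with FLAG-tagged full-length ING3 behind a CMV promoter, and the control cells a GFP lentivirus. The ING3 protein belongs to a histone acetyltransferase complex, NuA4/TIP60. Stably transfected clones were selected and grown in serum and antibiotic before RNA was taken, and the labels do not say how many clones a group held. There were 4 arrays, 2 of ING3 cells and 2 of control cells (a and b in each group). Per the series' design text the duplicates were technical, so every SD, interval and p-value below measures the spread between arrays of 1 cell population per group and not between independent cultures.

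Heat shock proteins fold newly made proteins and hold damaged ones, and most are abundant in growing cells. HSP90 matures kinases and steroid receptors with the help of co-chaperones. HSP70 binds exposed hydrophobic stretches in an ATP cycle that J-domain proteins start and nucleotide exchange factors end, and a chaperonin with its lid folds proteins inside mitochondria. The transcription factor HSF1 raises many of these genes during proteotoxic stress by binding heat shock elements, which are inverted repeats of the unit GAA.

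The elements are shown because heat shock genes are known for them; some of the members hold a match near a start and others do not. In the RefSeq sequences used here (GRCh38.p14), 9 of the 10 genes were covered, with 17 starts in all, and the 250 bases before each start were searched on both strands. FKBP4 was not searched. A run of 3 alternating units (GAANNTTCNNGAA or its reverse complement TTCNNGAANNTTC) was found before 4 of the 17 starts, belonging to HSP90AA1, HSP90AB1, HSPA8 and HSPD1, against 0.441% of 35116 windows of the same length genome-wide. A pair of units (GAANNTTC or TTCNNGAA, which every run of 3 also holds) was found before 7 of the 17 starts, adding DNAJB1, HSPB1 and HSPA4L, against 11.6% of all windows. HSPA4 and HSPE1 had no match in these windows. The matches of the 6 genes that have a value below are printed 5′ to 3′ on the gene's strand, with the matched units in capitals:
HSP90AA1 first: gggttcTTCCGGAAGGTTCgggagg
HSP90AA1 second: ggaggcTTCTGGAAaaagcg
HSP90AB1 first: agcaggTTCTGGAAGATTCatgggc
HSP90AB1 second: agattgTTCTGGAAGCTTCtggatt
HSPD1: gcattTTCTGGAAAGTTCTGGAAccgagc
DNAJB1 first: ggggcgGAAGGTTCtggagg
DNAJB1 second: gctctgGAAGCTTCcgccgg
HSPB1: acgagaGAAGGTTCcagatg
HSPA4L: agatctTTCTCGAAcccgca

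The HSP90AA1 stretches lie at chr14:102087114-102087138 and chr14:102087099-102087118 on the minus strand, and their units begin 88 and 68 bases before the same start. The HSP90AB1 stretches lie at chr6:44247772-44247796 and chr6:44247825-44247849 on the plus strand, beginning 165 and 112 bases before the same start. In HSPD1, at chr2:197500062-197500090 on the minus strand, a pair of overlapping matches joins into a run of 18 bases that begins 245 bases before the downstream of its 2 annotated starts. The run lies after, not before, the other HSPD1 start (chr2:197500274), which is the one nearest to HSPE1. The DNAJB1 stretches lie at chr19:14518461-14518480 and chr19:14518431-14518450 on the minus strand, 77 and 47 bases before a start. The HSPB1 stretch lies at chr7:76302485-76302504 on the plus strand, 182 bases before its start, and that of HSPA4L at chr4:127782146-127782165 on the plus strand, 170 bases before 1 of its 3 starts. HSPD1 and HSPE1 are neighbours that are read away from each other, and their nearest starts were 105 bases apart. A match is only a description of the letters, and neither binding nor start use was measured here.

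No member was called. Of the 9 genes, 0 were called higher and 0 lower in the ING3 cells by limma at an adjusted p under 0.05 over 12190 tested genes, of which 1.5% were called in all, 1.03% higher and 0.476% lower. Log2 differences (ING3 minus control) ran from -0.26 for HSPA4L to 0.25 for FKBP4, and the 95% intervals of all 9 members together spanned 0.703-fold to 1.33-fold. The lowest adjusted p was 0.12, for FKBP4, and the highest 0.81, for HSPB1. At an unadjusted p under 0.05 there were 4 members: FKBP4, HSPA4, DNAJB1 and HSPA4L, against 17.7% of all tested genes. Both ING3 arrays stood above both control arrays for 4 of the 9 members, against 24.3% of all tested genes, and below them for 2, against 24.9%. The groups thus did not overlap for 6 of the 9, against 49.2% of all tested genes. The same counts among the brightest genes, where most of the members lie, are given below. For a single gene, an exact permutation test of 2 arrays against 2 cannot go below p = 0.33.

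**Figure D1:**
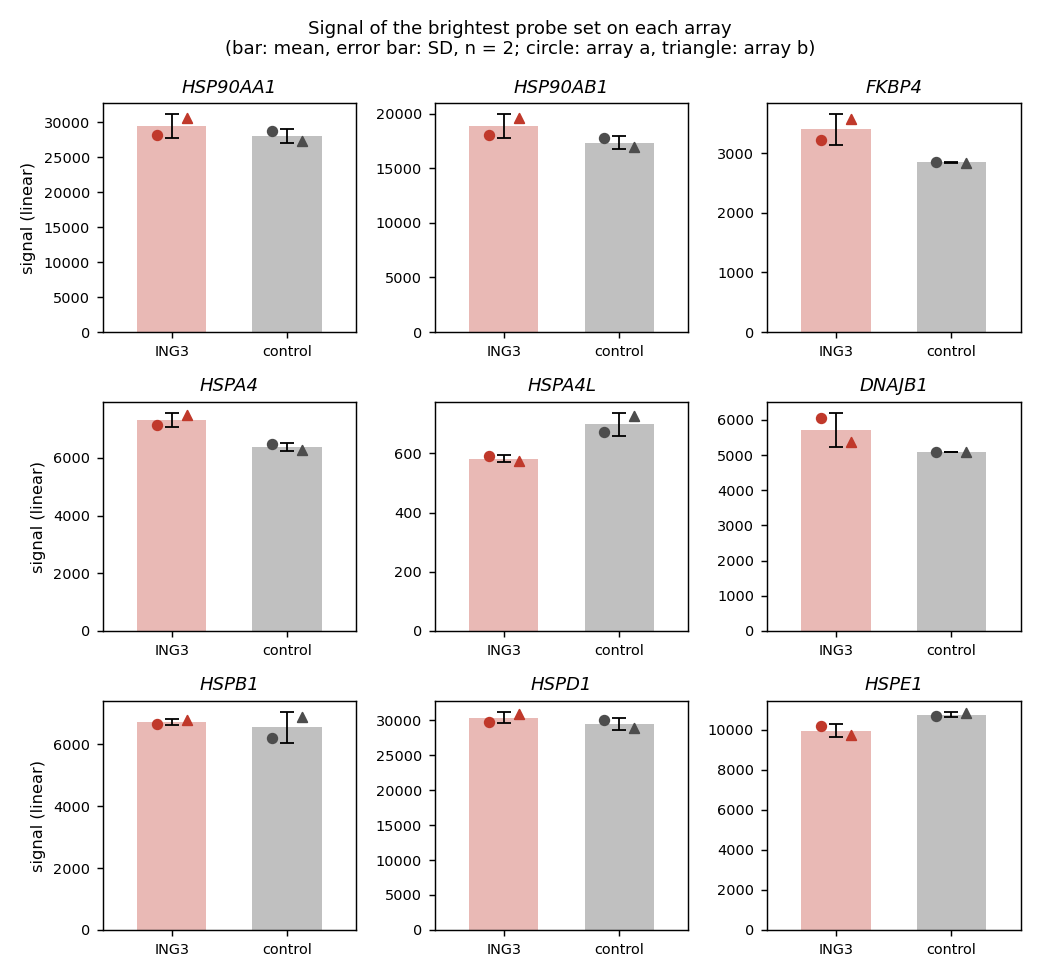
Linear signal of the brightest probe set of each of the 9 measured members on the 2 ING3 arrays and the 2 control arrays. Bars are means, error bars SD (n = 2), circles array a and triangles array b. FKBP4, HSPA4, DNAJB1 and HSP90AB1 had both ING3 arrays above both control arrays, HSPA4L and HSPE1 had both below, and the other 3 overlapped.

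Among the HSP90 genes, HSP90AA1, the stress-inducible cytosolic form, had signals of 28234 and 30633 on ING3 arrays a and b, against 28733 and 27331 on control arrays a and b. The groups overlapped, since control array a lay above ING3 array a. The log2 difference was 0.07 (SE 0.059, limma adjusted p = 0.59). HSP90AB1, the constitutive cytosolic form, had 18055 and 19622 in ING3 cells, against 17762 and 16932 in control cells. The ING3 arrays were both above the control arrays, but ING3 array a exceeded control array a by less than the control arrays differed from each other. Its log2 difference was 0.12 (SE 0.060, limma adjusted p = 0.34), with a 95% interval from 0.988-fold to 1.19-fold. It was 0.18 without ING3 array a, 0.058 without ING3 array b and 0.036 after cyclic loess normalization.

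FKBP4, a peptidyl-prolyl isomerase that joins HSP90 in steroid receptor complexes, had the largest positive difference of the 9. Its signals were 3221 and 3581 on the ING3 arrays, against 2857 and 2845 on the control arrays. Both ING3 arrays were higher, and the difference of the means exceeded the gap between the arrays of either group. The log2 difference was 0.25 (SE 0.072, 95% interval 1.06-fold to 1.33-fold), and the limma adjusted p was 0.12. Without ING3 array a, the lower of the ING3 arrays, FKBP4 was called (log2 difference 0.33, limma adjusted p = 0.047). In that fit the lone ING3 array is assumed to vary like the control arrays, between which FKBP4 differed by -0.0062 (log2, b minus a). It was called under no other alternative, with adjusted p between 0.047 and 0.64 over all of them.

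HSPA4 and HSPA4L are HSP110-type relatives of HSP70 that act as its nucleotide exchange factors. HSPA4 had 7140 and 7478 in ING3 cells, against 6479 and 6282 in control cells. Both ING3 arrays were higher, by more than the arrays of a group differed. The log2 difference was 0.20 (SE 0.058, limma adjusted p = 0.13), on a probe set of the x kind, which the manufacturer marks as able to cross-hybridise. HSPA4L had 590 and 574 in ING3 cells, against 671 and 724 in control cells. Here both ING3 arrays were lower, with a log2 difference of -0.26 (SE 0.11, limma adjusted p = 0.26).

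DNAJB1, the J-domain protein that stimulates the ATPase of HSP70, had 6051 and 5377 in ING3 cells, against 5087 and 5093 in control cells. Both ING3 arrays were higher, but they differed from each other by more (0.17 on the log2 scale) than the group means did (0.16). The SE was 0.069 and the limma adjusted p 0.26, and the log2 difference was 0.079 without ING3 array a and 0.25 without ING3 array b. HSPB1, the small heat shock protein that holds unfolding proteins without using ATP, had 6653 and 6789 in ING3 cells, against 6195 and 6896 in control cells. Both ING3 arrays fell between the control arrays (log2 difference 0.04, SE 0.066, limma adjusted p = 0.81).

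HSPD1 encodes the mitochondrial chaperonin and HSPE1 the lid that closes it. HSPD1 had 29818 and 30950 in ING3 cells, against 30057 and 28885 in control cells, and the groups overlapped (log2 difference 0.04, SE 0.053, limma adjusted p = 0.72). HSPE1 had 10189 and 9738 in ING3 cells, against 10669 and 10849 in control cells. Both ING3 arrays were lower by more than the arrays of a group differed, and the log2 difference was -0.11 (SE 0.055, limma adjusted p = 0.33). The partners, whose starts neighbour each other, had differences of opposite sign as processed here and of the same sign after cyclic loess normalization (-0.055 for HSPD1 and -0.17 for HSPE1). Neither was called, and the difference between them was not tested.

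The probe sets of a gene were compared next. Which parts of its transcripts they read, and whether these parts overlap, was not examined. In a second limma fit over 27305 probe sets, 0 of the 23 member probe sets were called, against 0.37% of all, and the lowest adjusted p was 0.14, for the second HSPA4 probe set. The unadjusted p was under 0.05 for 7 of the 23, against 15.7% of all probe sets. The ING3 mean was higher for 19 of the 23, against 41.6% of all probe sets. Both ING3 arrays stood above both control arrays for 12 of the 23, against 19.4% of all probe sets, and below them for 2, against 28.8%. In 1 direction or the other, 48.1% of all probe sets had groups that stood apart. The 23 probe sets read only 9 genes, so they are not separate members. Shares among bright genes are given below, by gene and not by probe set.

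**Figure D2:**
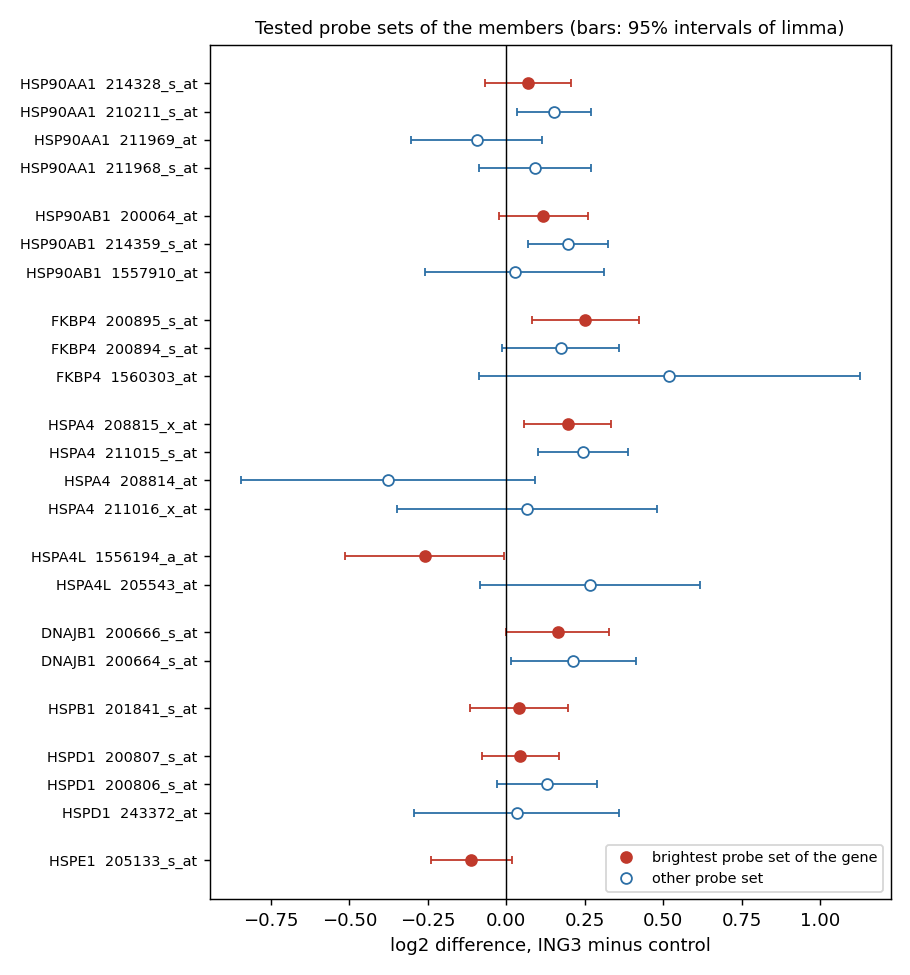
Log2 differences (ING3 minus control) of the 23 tested probe sets of the members, with 95% intervals from limma. Filled red points are the brightest probe set of each gene and open blue points the others. All tested probe sets of FKBP4, DNAJB1, HSP90AB1 and HSPD1 lay above 0, those of HSP90AA1, HSPA4 and HSPA4L on both sides.

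FKBP4 and DNAJB1 had the same direction on every tested probe set. The second FKBP4 probe set had 1781 and 1782 in ING3 cells, against 1512 and 1650 in control cells, and a dimmer one had 123 and 138 in ING3 cells, against 91.6 and 89.6 in control cells. The 3 differences were 0.25, 0.17 and 0.52 (log2), and ING3 arrays stood above control arrays in each. The second DNAJB1 probe set had 2099 on both ING3 arrays, against 1689 and 1940 on the control arrays, a log2 difference of 0.21. The remaining FKBP4 probe set lay below the filter, with 59.6 and 32.9 in ING3 cells, against 55.5 and 64.0 in control cells.

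HSP90AB1 had a higher mean in ING3 cells on its 3 probe sets, by 0.12, 0.20 and 0.03 (log2), and the second of these had 11045 and 11011 in ING3 cells, against 9445 and 9783 in control cells. HSP90AA1 differed by 0.07, 0.15, -0.09 and 0.09 on its 4 probe sets, and its groups were apart on the second alone, with 24382 and 24927 in ING3 cells, against 21981 and 22417 in control cells. HSPD1 differed by 0.04, 0.13 and 0.03 on the 3 probe sets past the filter. Its 2 dim probe sets were at signals of 11.6 to 59.3 on all arrays and were not tested.

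HSPA4L and HSPA4 had probe sets that went opposite ways. The second HSPA4L probe set had 554 and 519 in ING3 cells, against 391 and 509 in control cells, so both ING3 arrays were higher there (log2 difference 0.27, SE 0.15, limma adjusted p = 0.43) while both were lower on the brightest. The second HSPA4 probe set had 6113 and 5838 in ING3 cells, against 5144 and 4935 in control cells, a log2 difference of 0.25 (SE 0.063, limma adjusted p = 0.14). Of the others, 1 had 483 and 734 in ING3 cells, against 894 and 670 in control cells, with overlapping groups and a log2 difference of -0.38 (SE 0.21). The groups overlapped on the last HSPA4 probe set as well, at 0.06.

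The members are bright, and brightness moved with the difference. Of the 9 members, 7 (all but FKBP4 and HSPA4L) belonged to the brightest 10% of tested genes. Among those 1219 genes, 71.2% were higher by their means in ING3 cells, and the median log2 difference was 0.055. Both ING3 arrays stood above both control arrays for 557 of the 1219 and below them for 143, and 23.8% had an unadjusted p under 0.05 (limma). For the 7 members among them these counts were 3, 1 and 2. The median over all tested genes was -0.0074, with 48.3% higher. The members' median was 0.070, with 7 of 9 higher. After cyclic loess normalization, which removes a difference that depends on brightness, the median was -0.0061 for the members and -0.0064 for the brightest 10%, and 4 of the 9 members were higher. After quantile normalization the medians were 0.064 for the members and 0.0057 for the brightest 10%, with 6 of 9 members higher. FKBP4, HSPA4, DNAJB1 and HSP90AB1 remained higher, and HSPA4L and HSPE1 lower, under both normalizations.

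**Figure D3:**
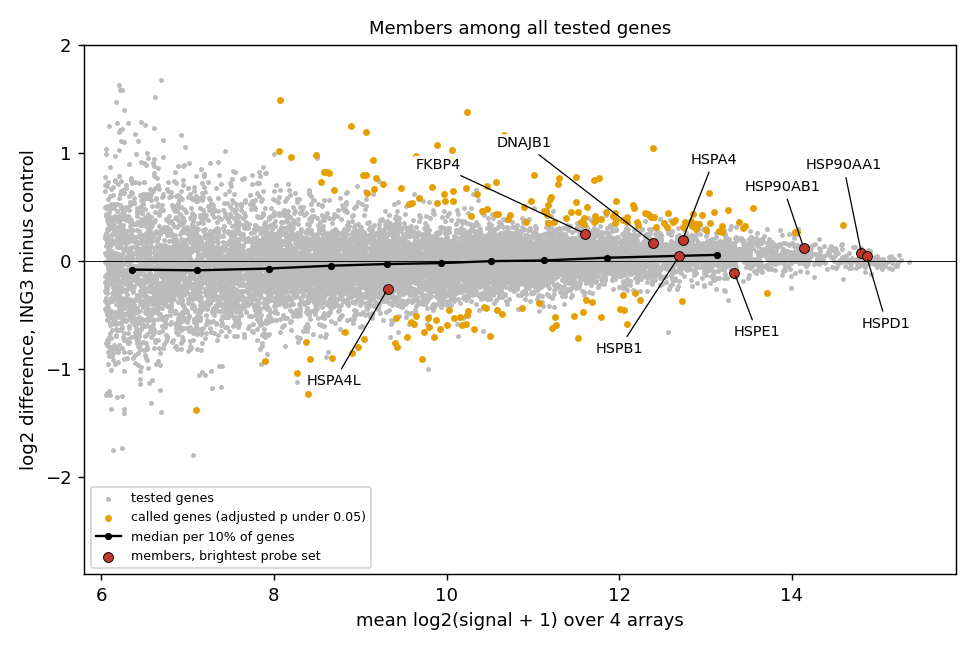
Log2 difference (ING3 minus control) against mean log2(signal + 1) for the 12190 tested genes (grey), the 183 called genes (orange) and the 9 members (red). The black line joins the medians of successive 10% groups of genes by brightness and rises above 0 at the bright end, where 7 of the members lie.

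The smallest absolute log2 difference among the 183 called genes was 0.27, and each of the 9 members lay below it, HSPA4L (-0.26) and FKBP4 (0.25) narrowly. The called genes were selected by adjusted p in these same data, so this describes sizes only.

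Other genes of the chaperone network were taken from 9 lists (108 genes, 91 tested). Of the 91 tested genes 1 was called higher and 0 lower, against 1.03% and 0.476% of all tested genes, and the median log2 difference was 0.041. At an unadjusted p under 0.05 there were 17 of the 91, or 18.7%, against 17.7% of all tested genes, so both counts were at the background. HSF1 had 794 and 973 in ING3 cells, against 782 and 787 in control cells (log2 difference 0.16, SE 0.12, limma adjusted p = 0.51), so both ING3 arrays were higher, ING3 array a narrowly. HSBP1, a small protein that binds HSF1, differed by 0.19 (SE 0.059, limma adjusted p = 0.15), and the median of the 3 tested genes of that list was 0.16. It was 0.31 without ING3 array a, 0.018 without ING3 array b and -0.086 on probe sets not of the x or s kind (those without these suffixes).

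The called gene was TRAP1, the HSP90 form of mitochondria. It rose 1.28-fold, with signals of 4578 and 4371 in ING3 cells, against 3533 and 3482 in control cells (log2 difference 0.35, SE 0.062, limma adjusted p = 0.031). Both ING3 arrays stood well apart from the control arrays, but the call was not stable: TRAP1 was called under 6 of 13 alternatives, with adjusted p between 0.011 and 0.85. It was 0.26 without control array a, 0.28 without control array b, and 0.072 in the fit over all probe sets. The 12 tested genes of the list of mitochondrial chaperones and proteases had a median log2 difference of 0.20. By their means 9 of the 12 were higher, against 48.3% of all tested genes and 71.2% of the brightest 10%. In 2 other lists, 12 of 16 (endoplasmic reticulum chaperones) and 10 of 12 (TRiC/CCT chaperonin and prefoldin) were higher. An unadjusted p under 0.05 (limma) was reached by 6 of the 12 mitochondrial genes, against 17.7% of all tested genes. The median of the mitochondrial list was 0.18 after quantile normalization and 0.19 after cyclic loess, but 0.13 on probe sets not of the x or s kind. It was 0.098 without control array b, 0.27 without control array a, and -0.018 when all probe sets of a gene were averaged. CLPB, a mitochondrial disaggregase, had 527 and 625 in ING3 cells, against 426 and 391 in control cells, a log2 difference of 0.49 (SE 0.14, limma adjusted p = 0.11).

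The co-chaperone lists held 0 called genes. Of the 9 tested nucleotide exchange and regulatory co-chaperones of HSP70, HSPBP1, an exchange factor, had 779 and 795 in ING3 cells, against 615 and 581 in control cells (log2 difference 0.40, SE 0.11, limma adjusted p = 0.10). BAG2, which inhibits the ubiquitin ligase STUB1, went the other way, with 1527 and 1476 in ING3 cells, against 1857 and 1973 in control cells (log2 difference -0.35, SE 0.077, limma adjusted p = 0.064). The groups of both genes were apart. The 17 tested HSP90 co-chaperones had a median of -0.022, with 6 higher and 11 lower. The sign turned without control array b (0.036, with 11 higher) and without ING3 array b (0.026, with 9 higher). The largest differences were 0.36 for FKBP8, a membrane-anchored relative of FKBP4 (SE 0.36), and 0.31 for RPAP3, a partner of HSP90 in complex assembly (SE 0.081, limma adjusted p = 0.092). The 16 tested J-domain genes had a median of 0.037 (0.0054 to 0.055 without 1 array), and DNAJB5 and DNAJC5 differed most, by 0.26 (SE 0.52) and -0.21 (SE 0.21), with overlapping groups.

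**Figure D4:**
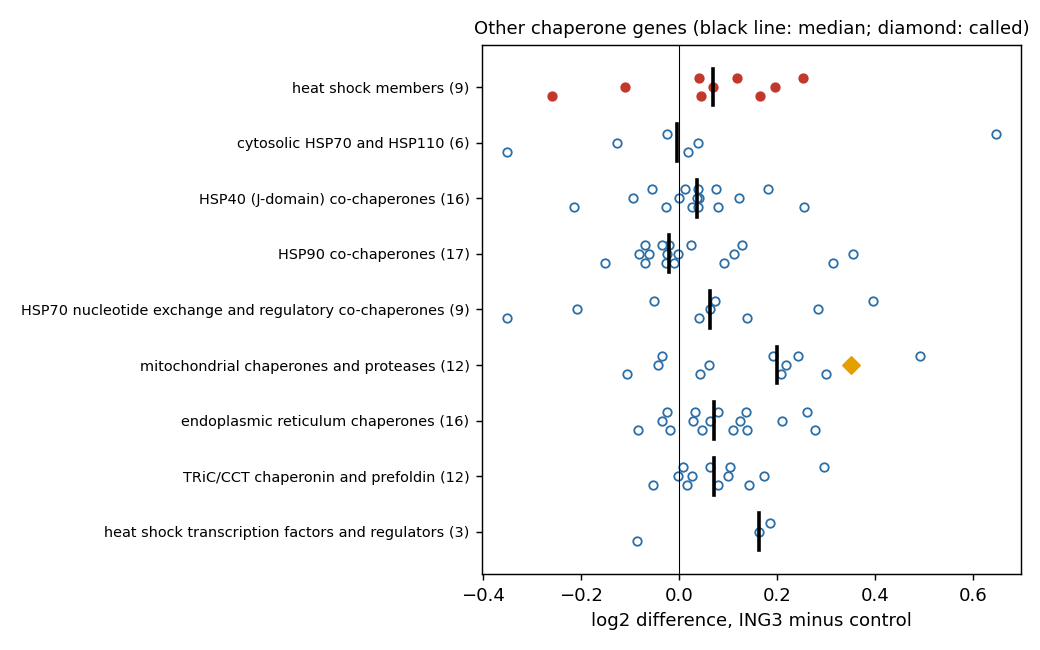
Log2 differences (ING3 minus control) of the 9 members (red) and of the tested genes of 8 chaperone lists (blue, number of genes in parentheses). Black lines are medians and the orange diamond is TRAP1, the called gene. The list of mitochondrial chaperones and proteases has a median of 0.20, and the other lists with 6 or more genes have medians between -0.022 and 0.072.

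The remaining lists also held 0 called genes. The 16 tested chaperones of the endoplasmic reticulum had a median of 0.071 (0.023 to 0.12 without 1 array, 0.055 on probe sets not of the x or s kind). They were led by CALR, a calcium-binding lectin chaperone, at 0.28 (SE 0.064, limma adjusted p = 0.071), and PDIA6, a protein disulfide isomerase, at 0.26 (SE 0.058, limma adjusted p = 0.067). Both were read by probe sets of the x kind, marked as able to cross-hybridise. The 12 tested genes of the cytosolic TRiC/CCT chaperonin and prefoldin had a median of 0.072, which was 0.015 after quantile normalization and 0.0020 after cyclic loess. They were led by the prefoldin subunits PFDN4 at 0.30 (SE 0.074, limma adjusted p = 0.087) and PFDN1 at 0.17 (SE 0.089). The 6 tested cytosolic HSP70 and HSP110 genes had a median of -0.0037 (-0.098 to 0.026 without 1 array), and the largest differences belonged to the dim genes HSPA12B, at 0.65 (SE 0.52), and HSPA1L, at -0.35 (SE 0.41), with overlapping groups. The strongly heat-inducible HSPA1A and HSPA1B had no probe set of their own symbol alone, and HSPA6, another inducible HSP70, lay below the filter at signals of 65.0 and 33.1 in ING3 cells, against 96.8 and 53.7 in control cells. None of the 8 measured small heat shock proteins besides HSPB1 passed the filter.

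ING3 itself had 521 and 541 in ING3 cells, against 338 and 373 in control cells (log2 difference 0.58, SE 0.13, limma adjusted p = 0.071) on its brightest probe set. Its other probe sets had 261 and 222 in ING3 cells, against 287 and 261 in control cells, then 180 and 162, against 154 and 186, and, below the filter, 57.6 and 23.9, against 27.1 and 25.1. On the first of these both ING3 arrays were below both control arrays, narrowly (260.5 on ING3 array a against 261.3 on control array b), with a difference of -0.19 (log2). The groups overlapped on the others. By its brightest probe set, ING3 was not called. Of the epithelial markers, KRT8, KRT18 and KRT19 were bright on all arrays, while EPCAM and CDH1 lay below the filter. The summed signal of the 5 epithelial markers was 45090 and 48174 in ING3 cells, against 39924 and 40095 in control cells. The 3 leukocyte markers summed to 119 to 129 in ING3 cells, against 57.5 to 193 in control cells. Of these, 1 passed the filter: CD3E, with 87.1 and 42.5 in ING3 cells, against 129 and 38.8 in control cells. PTPRC and CD14 lay below it. The 7 fibroblast and stellate markers, of which 5 passed the filter, summed to 6038 and 6440 in ING3 cells, against 7090 and 6951 in control cells. The 3 endothelial markers, of which 2 passed the filter, summed to 456 and 370 in ING3 cells, against 467 and 412 in control cells. The ACTB control probe sets, which gauge RNA integrity, had 3′ to 5′ ratios of 2.05 and 2.03 on the ING3 arrays, against 2.58 and 1.80 on the control arrays. Those of GAPDH were 0.903 and 0.923 on the ING3 arrays, against 0.934 and 0.905 on the control arrays. The part of these values in the members' differences was not tested.

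**Figure D5:**
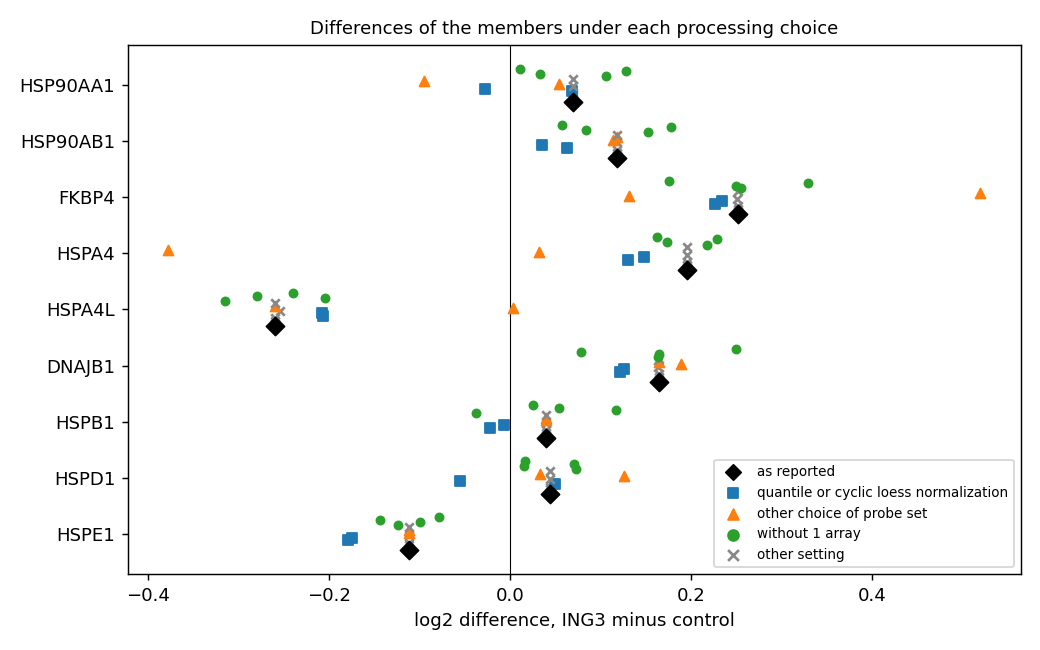
Log2 difference (ING3 minus control) of each member as reported (black diamond) and under the 13 processing alternatives. FKBP4, DNAJB1 and HSP90AB1 stayed above 0 and HSPE1 below 0 in all of them, while the other 5 changed sign in at least 1.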

How the data were processed

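RNA from 4 biotin-labelled samples was read on 1-colour Affymetrix arrays. The authors deposited linear intensity values of 54675 probe sets, which per the submitters' processing notes came from MAS5 in Affymetrix Expression Console, versions not given in the sources used here. MAS5 scales each array by 1 factor (trimmed mean about 500.1 on each), so differences that depend on brightness remain. Arrays have no read depth, and their number limits the precision. Probe sets were named from GEO's platform annotation: 41097 had 1 symbol and 1801 several. After leaving out 62 control probe sets, each gene was represented by its brightest probe set. Signals were transformed as log2(signal + 1), and the 12190 genes at or above the median probe set by mean (signal 64.6) were tested with limma 3.58.1 in R 4.3.3 (intensity trend, two-sided, Benjamini-Hochberg over all tested genes, called under 0.05). The fit had 2 residual degrees of freedom and borrowed 7.35. "Rose" is used for called genes. Named besides the members were ING3, HSF1, and of each list the called genes and the 2 with the largest absolute difference; HSPA1A, HSPA1B and HSPA6 were named after their values were seen. The members and lists were chosen with earlier results of these data known. The labels do not say whether same-lettered arrays shared a step. Deviations of same-lettered arrays correlated at 0.029 across genes. Alternatives changed the variance trend, filter, normalization, pseudocount (16), choice of probe set, replicate block or set of arrays.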

Additional observations from a re-analysis of the deposited data

How the results depend on the processing

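Of 117 values of the 9 members under 13 alternatives, 108 kept their sign and stayed uncalled, 8 changed sign and 1 became called. The cause of each change below was not tested, except where an alternative reads other probe sets or fewer arrays by construction. HSP90AA1 turned to -0.028 with cyclic loess and to -0.095 on probe sets not of the x or s kind; HSPA4 turned to -0.38 on such probe sets and HSPA4L to 0.0031 with all probe sets averaged. HSPB1 turned to -0.021 with quantile normalization and -0.0061 with cyclic loess, and HSPD1 to -0.055 with cyclic loess. Leaving out 1 array, which assumes that the lone array left in a group varies like the other group, gave ranges of 0.18 to 0.33 for FKBP4 (called without ING3 array a) and -0.037 to 0.12 for HSPB1 (lower without control array a), 0.011 to 0.13 for HSP90AA1, 0.058 to 0.18 for HSP90AB1, 0.16 to 0.23 for HSPA4, 0.015 to 0.073 for HSPD1, 0.079 to 0.25 for DNAJB1, -0.31 to -0.20 for HSPA4L and -0.14 to -0.079 for HSPE1. The members' median was -0.0061 with cyclic loess and 0.033 on probe sets not of the x or s kind, and 0.026 to 0.11 without 1 array. Members called higher numbered 0 to 1 without 1 array.

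Over all tested genes, counts called higher and lower (125 and 58) were 0 and 0 without the intensity trend (1686 genes at an unadjusted p under 0.05), 42 and 12 without the filter on dim genes, 79 and 36 with quantile normalization, 90 and 36 with cyclic loess, 26 and 11 with all probe sets averaged, and 83 and 45 on probe sets not of the x or s kind. Without 1 array they ranged from 2 to 189 higher and from 0 to 116 lower; without either control array 2 were higher and 0 lower. Among the other chaperone lists the 1 gene called higher, TRAP1, became 0 without the trend, without the filter, with quantile normalization, with cyclic loess and with all probe sets averaged (where TRAP1 turned to -0.19), and 0 to 4 without 1 array. With the array letter as a replicate block, 263 genes were called higher and 179 lower, 6 and 1 in the other lists, and 0 members.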
